A study of Mus musculus with 16 samples.

Results

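The 10 neighbouring genes of the clade A serpin family followed here, in the livers of 27-week-old female mice, were Serpina1a, Serpina1b, Serpina1c, Serpina1d, Serpina1e, Serpina3k, Serpina3m, Serpina3n, Serpina6 and Serpina12. The members were chosen by gene symbol and not by a rule on measured values, though with earlier results of these data known. All 10 were among the 15544 genes listed. Of these, 9 passed a filter for low values (4 libraries or more at a level of at least 1), as did 12704 genes in all, and Serpina12 did not pass.

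The liver RNA came from 4 groups of 4 mice. Controls carried floxed alleles of the oestrogen receptor gene Esr1 without Cre (Esr1fl/fl), and mutants carried the same floxed alleles together with Cre driven by Nkx2-1 (Esr1Nkx2-1Cre), which deletes Esr1 in Nkx2-1 cells, including those of the medial basal hypothalamus, and gives females with high bone mass. Each genotype was kept on chow or had 17 weeks of a high-fat diet (HFD). The animals had a mixed genetic background, and nothing in the labels says how they were spread over litters or days, so p-values measure the spread between these libraries. Esr1 in the liver is not the target of this Cre, so its level there is no check of the labels.

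The titles of the 16 libraries hold running numbers in 4 series. Within each diet they are called series A (lower numbers) and series B (higher numbers). HFD series A held 3 controls and 1 mutant and HFD series B held 1 control and 3 mutants, while chow series A held 2 controls and 1 mutant and chow series B held 2 controls and 3 mutants. What the numbers stand for is not stated. On HFD the genotypes were thus spread unevenly over the series, and as each series lies within 1 diet, series and diet cannot be told apart. The summed level of 6 hepatocyte markers ranged from 60260 to 99350 over the 16 libraries. Of 5 adipocyte markers, Adipoq and Lep were not listed. The other 3 (Plin1, Cidec and Fabp4) were listed, with a summed level of 8.99 to 23.4, so adipocyte RNA cannot be called absent. No pair of libraries held identical values. Levels are transcript shares (TPM) adjusted by library size factors, the read depth is unknown, and in bulk liver fewer cells of a type and less RNA per cell cannot be told apart.

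Serpins are secreted or intracellular proteins, most of which inhibit serine proteases by a suicide mechanism. The protease cuts an exposed bait, the reactive centre loop, and is trapped in a covalent complex while the loop inserts into the body of the serpin. Alpha-1-antitrypsin, made by hepatocytes and best known as the inhibitor of neutrophil elastase, is encoded by a single gene in humans and by the Serpina1 paralogues in mice. The Serpina3 paralogues correspond to human alpha-1-antichymotrypsin. Some members of the clade have become carriers, such as Serpina6, which encodes corticosteroid-binding globulin, the transporter of glucocorticoids in plasma. Serpina12 encodes vaspin, an adipokine that inhibits kallikrein 7.

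All 10 genes lie in 1 cluster on chromosome 12 of GRCm38. From the low end, Serpina6 lies at chr12:103646630-103657212, Serpina1b at chr12:103728156-103830373, Serpina1d at chr12:103763594-103773592, Serpina1a at chr12:103853589-103863562, Serpina1c at chr12:103894926-103904887, Serpina1e at chr12:103946931-103958975 and Serpina12 at chr12:104028769-104044443, all on the minus strand. Serpina3k at chr12:104338486-104346144, Serpina3m at chr12:104338486-104394257 and Serpina3n at chr12:104406729-104414329 lie on the plus strand. The annotated span of Serpina1b contains Serpina1d, and that of Serpina3m contains Serpina3k.

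The coding sequences of the Serpina1 paralogues are 96.3 to 98.5% identical. Serpina1a differs from the other 4 at 19 to 43 of 1239 aligned coding bases, and 6 to 12 of these lie in the stretch of 87 bases that codes for the reactive centre loop, the part that meets the protease. The loop-coding stretches are shown for this reason, from the hinge to the conserved end of the loop, 5′ to 3′ in the direction of transcription (GENCODE transcripts on GRCm38). Capitals mark the bases that differ from Serpina1a.
Serpina1a: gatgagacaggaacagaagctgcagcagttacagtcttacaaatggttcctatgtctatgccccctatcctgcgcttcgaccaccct
Serpina1b: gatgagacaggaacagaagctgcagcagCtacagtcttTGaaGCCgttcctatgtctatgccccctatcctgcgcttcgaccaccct
Serpina1c: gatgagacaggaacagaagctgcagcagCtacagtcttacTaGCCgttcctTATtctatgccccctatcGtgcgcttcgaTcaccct
Serpina1d: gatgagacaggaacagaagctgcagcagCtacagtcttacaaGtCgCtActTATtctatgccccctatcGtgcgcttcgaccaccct
Serpina1e: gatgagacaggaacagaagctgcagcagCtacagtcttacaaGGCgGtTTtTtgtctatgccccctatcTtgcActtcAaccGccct

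All 5 genes share the bases at the hinge. The differences lie in the part that follows and, in Serpina1c and Serpina1e, also in the conserved end of the stretch. Over these 87 bases Serpina1b differed from Serpina1a at 6 bases, Serpina1c at 10, Serpina1d at 9 and Serpina1e at 12. The number of the 29 codons that give another residue than in Serpina1a was 4 for Serpina1b, 5 for Serpina1c, 6 for Serpina1d and 8 for Serpina1e. The stretches lie at chr12:103853753-103853839 (Serpina1a), chr12:103728320-103728406 (Serpina1b), chr12:103895090-103895176 (Serpina1c), chr12:103763758-103763844 (Serpina1d) and chr12:103947096-103947182 (Serpina1e), on the minus strand.

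The Serpina3 paralogues are less alike, with coding identities of 92.0% for Serpina3k and Serpina3m, 83.8% for Serpina3k and Serpina3n and 85.2% for Serpina3m and Serpina3n. Their loop-coding stretches are given for the same comparison, with capitals for the bases that differ from Serpina3m.
Serpina3m: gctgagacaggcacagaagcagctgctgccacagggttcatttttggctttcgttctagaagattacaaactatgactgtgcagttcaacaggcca
Serpina3k: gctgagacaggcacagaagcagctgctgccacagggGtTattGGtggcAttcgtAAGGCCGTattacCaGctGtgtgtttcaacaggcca
Serpina3n: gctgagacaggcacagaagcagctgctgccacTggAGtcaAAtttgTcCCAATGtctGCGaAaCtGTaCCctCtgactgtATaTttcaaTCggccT

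Serpina3k is 6 bases shorter here than Serpina3m and differs from it at 16 further bases. Serpina3n differs from Serpina3m at 28 of 96 bases, and 11 of the 32 codons give another residue. The stretches lie at chr12:104393760-104393855 (Serpina3m), chr12:104345260-104345349 (Serpina3k) and chr12:104413439-104413534 (Serpina3n), on the plus strand.

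How well reads can be divided among the paralogues sets how the single values may be read. Of the 31-base subsequences in its transcripts, Serpina1c shared all but 14.2% with some other gene, and 77.5% of them with Serpina1a. The share found in no other gene was 34.8% for Serpina1a, 35.3% for Serpina1d, 45.8% for Serpina1e and 55.3% for Serpina1b. It was 75.8% for Serpina3k, 65.0% for Serpina3m, 78.4% for Serpina3n and 100% for Serpina6 and Serpina12. The division of reads among the Serpina1 genes is therefore uncertain, most of all for Serpina1c. The pseudogene Gm8893 also shared 43.2% of the subsequences of Serpina1a and 53.0% of those of Serpina1c, and its own level averaged 289 to 357 in the 4 groups.

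The regulatory sequence next to the start is nearly the same in the 5 Serpina1 genes. RefSeq start sites on GRCm38.p6 were matched for 7 of the 10 members (the Serpina1 genes, Serpina3n and Serpina12), as windows of 250 bases before to 50 after the start. The letters GTTAAT, the core of sites bound by the liver factor HNF1, were searched on both strands. They occurred once in each of the 5 Serpina1 windows, were not found in those of Serpina3n and Serpina12, and occurred in 7.1% of all 32851 windows. The 40 bases before and 10 after the motif are shown because they are the sequence that the 5 paralogues hold in common, with the motif in capitals.
Serpina1a: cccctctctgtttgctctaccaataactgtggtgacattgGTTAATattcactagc
Serpina1b: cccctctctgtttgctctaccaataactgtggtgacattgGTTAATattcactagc
Serpina1c: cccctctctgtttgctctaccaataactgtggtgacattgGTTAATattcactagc
Serpina1d: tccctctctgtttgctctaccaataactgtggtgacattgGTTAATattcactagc
Serpina1e: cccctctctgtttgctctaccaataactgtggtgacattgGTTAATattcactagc

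Only the first of these 56 bases differs, in Serpina1d. The stretches lie on the minus strand at chr12:103863625-103863680 (Serpina1a), chr12:103738200-103738255 (Serpina1b), chr12:103904962-103905017 (Serpina1c), chr12:103773634-103773689 (Serpina1d) and chr12:103956960-103957015 (Serpina1e). The motif began 16 to 27 bases before the annotated start in 4 of the genes and 78 bases before it in Serpina1e. A match of letters is a description of the window and does not show that a factor was bound.

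The levels of the 5 paralogues were far apart. The order was Serpina1a, Serpina1b, Serpina1c, Serpina1d and Serpina1e, with means over 16 libraries of 3595, 1623, 609, 210 and 2.47 on the length-adjusted TPM scale. Serpina1a was at rank 32 of all genes listed and Serpina1e at rank 10512. In each library the 5 genes kept this order without overlap between neighbours: the highest Serpina1b value (1927) was below the lowest Serpina1a value (2261). Serpina1a supplied 59.1 ± 4.0% (SD, n = 16) of the summed level, Serpina1b 27.2 ± 2.3%, Serpina1c 10.2 ± 2.0%, Serpina1d 3.54 ± 0.62% and Serpina1e 0.0401 ± 0.0092%.

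**Figure D1:**
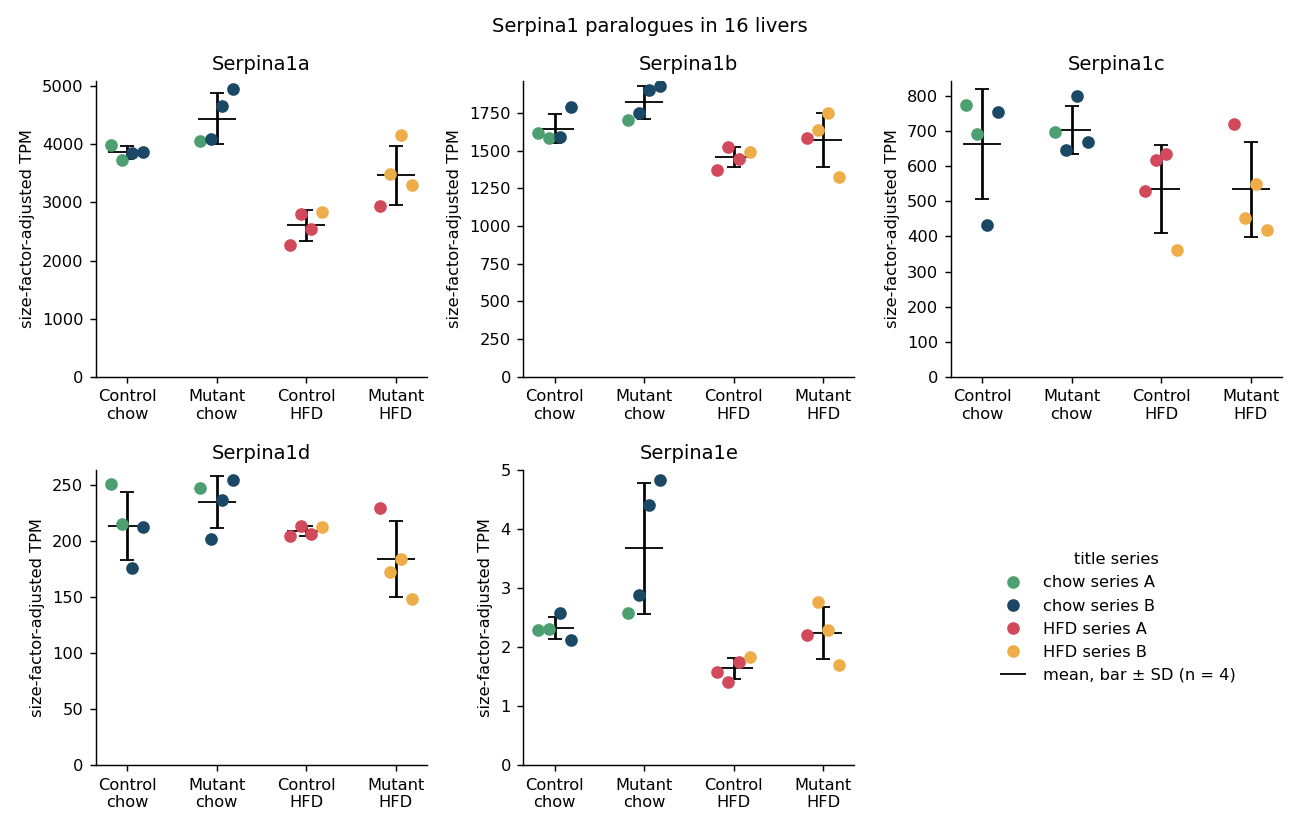
Levels of the 5 Serpina1 paralogues (y axis, size-factor-adjusted TPM, linear from 0) in the 4 groups (x axis). Each point is 1 library, coloured by the number series of its title, and horizontal lines and bars are the mean and SD of 4 libraries. Serpina1a lies at 2261 to 2828 in HFD controls, below the 2944 to 4154 of HFD mutants and the 3724 to 3985 of chow controls.

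The main antitrypsin gene, Serpina1a, was the member whose groups were most clearly apart. It was at 3985, 3724, 3854 and 3874 in chow controls 1 to 4 and at 4058, 4099, 4661 and 4954 in chow mutants 1 to 4. On HFD it was at 2261, 2806, 2538 and 2828 in controls 1 to 4 and at 2944, 3481, 4154 and 3302 in mutants 1 to 4. Every mutant was thus above every control on the same diet, and every HFD control was below every chow control.

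The test across all genes (limma, moderated test on log2(value + 1), Benjamini-Hochberg adjustment over 12704 genes) did not place Serpina1a past an adjusted p of 0.05 in any comparison. Mutants against controls gave a log2 fold change of 0.41 (SE 0.14, n = 4 against 4, adjusted p = 0.527) on HFD. On chow the value was 0.20 (SE 0.14, adjusted p = 0.924). HFD against chow gave −0.57 (SE 0.14, adjusted p = 0.173) in controls and −0.36 (SE 0.14, adjusted p = 0.65) in mutants. The genotype comparison on HFD and the diet comparison in controls share the HFD controls.

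The higher Serpina1a value of mutants was also present inside the number series. In HFD series A the mutant was at 2944 and the 3 controls were at 2261 to 2806, and in HFD series B the 3 mutants were at 3302 to 4154 and the control was at 2828. In chow series A the mutant was at 4058 with controls at 3724 and 3985, and in chow series B the mutants were at 4099 to 4954 with controls at 3854 and 3874. Serpina1a was the only 1 of the 9 tested members in which every mutant exceeded every control within each of the 4 series, a pattern found in 0.48% of the genes tested. This pattern was looked for after the values had been seen. With the series as a term in the fit, the genotype difference was 0.18 (SE 0.12) on chow and 0.29 (SE 0.13, adjusted p = 1.00) on HFD.

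The call on diet in controls depended on 1 library. Without HFD control 4, the only control of HFD series B, the Serpina1a difference was −0.61 with an adjusted p of 0.0273. In that fit 928 genes passed the adjusted threshold for diet in controls, against 0 with all libraries. With libraries weighted by their agreement with their group, the Serpina1a difference was −0.56 with an adjusted p of 0.00755. HFD control 4 had the lowest weight (0.228) and HFD mutant 1, the only mutant of HFD series A, had a weight of 0.329. With these weights 17.8% of all genes passed the adjusted threshold for diet in controls and 30.9% for genotype on HFD, against 0% and 0.0157% without them. The Serpina1a genotype difference on HFD was 0.47 with an adjusted p of 0.00578 in the weighted fit.

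Serpina1b, the second antitrypsin gene, varied least, with a coefficient of variation of 10.7% over 16 libraries. It was at 1615, 1585, 1591 and 1786 in chow controls, at 1701, 1748, 1900 and 1927 in chow mutants, at 1368, 1527, 1442 and 1490.2 in HFD controls and at 1581, 1634, 1746 and 1322 in HFD mutants. The HFD controls all lay below the chow controls, and the other pairs of groups overlapped. The difference between the diets in controls was −0.17 (SE 0.11, adjusted p = 0.524).

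Serpina1c, the paralogue with the fewest bases of its own, was at 433 to 774 in chow controls, 646 to 802 in chow mutants, 360 to 634 in HFD controls and 419 to 720 in HFD mutants. Its groups overlapped in all 4 comparisons. The genotype difference on HFD was −0.00 (95% interval −0.47 to 0.47), an interval that leaves a change of up to 0.47 in either direction.

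Serpina1d was at 176 to 251 in chow controls, 202 to 254 in chow mutants, 205 to 213 in HFD controls and 149 to 229.5 in HFD mutants. Its difference between diets in mutants was −0.36 (SE 0.13, adjusted p = 0.63), with overlapping groups. Serpina1d had the smallest unadjusted p of the members for a genotype by diet interaction in limma, with an estimate of −0.35 (SE 0.19, adjusted p = 0.895). The estimate of Serpina3n was larger in size, −0.61 (SE 0.42), with the same adjusted p.

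Serpina1e, close to the filter on low values, was at 2.30, 2.32, 2.58 and 2.12 in chow controls and at 2.58, 2.89, 4.41 and 4.84 in chow mutants. On HFD it was at 1.59, 1.42, 1.75 and 1.83 in controls and at 2.21, 2.77, 2.29 and 1.70 in mutants. Chow mutants were above chow controls in every library, though the nearest libraries of both groups differed only in the third decimal (2.584 and 2.581). The difference was 0.46 (SE 0.16, adjusted p = 0.729), on a scale that understates the change of genes at this level. HFD mutants were lower than chow mutants by the estimate, −0.51 (SE 0.16, adjusted p = 0.622), with 1 overlapping library.

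Since reads are divided among near-identical paralogues, the summed Serpina1 level depends less on that division than the single values do. The sum leaves out the pseudogene Gm8893, which shares subsequences with Serpina1a and Serpina1c. The sum was 6383 ± 291 (SD, n = 4) in chow controls, 7205 ± 586 in chow mutants, 4812 ± 332 in HFD controls and 5762 ± 624 in HFD mutants. All chow mutants (6698 to 7810) were above all chow controls (6057 to 6628), and all HFD mutants (5193 to 6635) were above all HFD controls (4365 to 5166). All HFD controls were also below all chow controls. The groups of mutants on the 2 diets did not overlap either, with 6635 as the highest HFD and 6698 as the lowest chow value. Single genes did not overlap in the same direction in 1.95% (genotype on chow) and 1.39% (genotype on HFD) of those tested. For diet the shares were 2.98% in controls and 1.86% in mutants. Gm8893 was at 206 in HFD mutant 4 and 319 in HFD control 2, whose Serpina1 sums were 5193 and 5166. The order of these libraries thus depends on whether Gm8893 is counted.

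On HFD, the shares of Serpina1a and Serpina1c in the sum split by title series and that of Serpina1b split by genotype. Serpina1a supplied 51.8 to 54.3% of the sum in the 4 libraries of HFD series A, including the mutant, and 57.8 to 63.6% in the 4 of HFD series B. Serpina1c was 22.0 to 25.0% of Serpina1a in the first set and 12.7 to 13.2% in the second, where the control (12.7%) lay among the mutants (12.7 to 13.2%). On chow the ratio was 17.2 to 19.4% in series A and 11.2 to 19.5% in series B. Serpina1b was 29.5 to 31.3% of the sum in all 4 HFD controls, with 30.5% in the control of series B, and 25.4 to 28.9% in all 4 HFD mutants. Serpina1d was 4.13 to 4.69% in HFD series A, and in series B it was 4.35% in the control and 2.78 to 3.004% in the mutants. What else differs between the series is not given in the labels, and its part in the division was not tested.

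**Figure D2:**
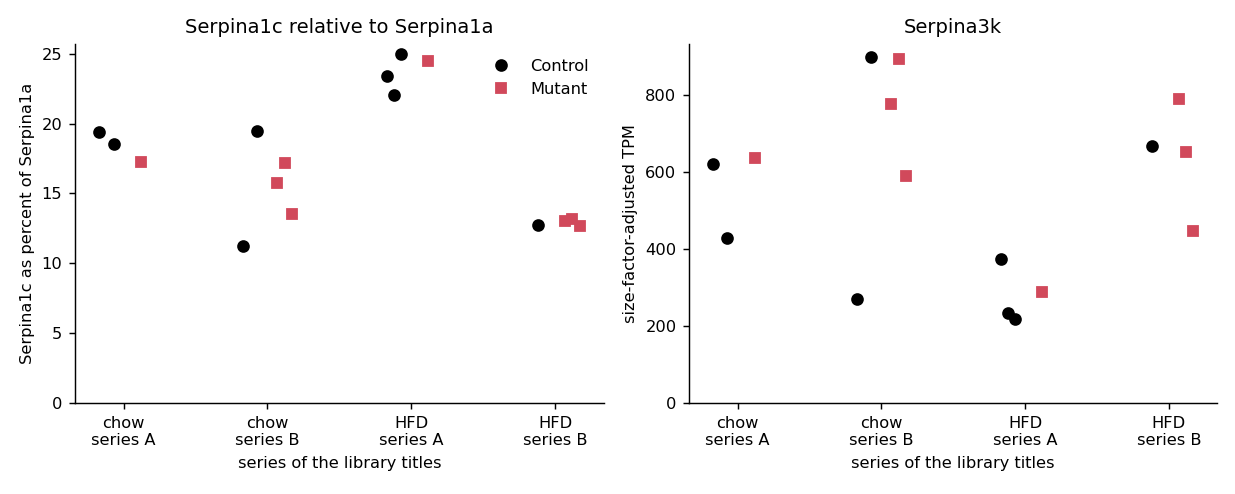
Serpina1c as percent of Serpina1a (left y axis) and the Serpina3k level (right y axis, size-factor-adjusted TPM) by the number series of the library titles (x axis). Circles are controls and squares are mutants. In the HFD libraries the ratio is 22.0 to 25.0% in series A and 12.7 to 13.2% in series B, in both genotypes.

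Serpina3k, one of the abundant mouse Serpina3 genes and known as a kallikrein-binding protein, was the most abundant of the 3 Serpina3 members, with a mean of 549 over 16 libraries. It was at 620.4, 429, 269.9 and 898 in chow controls, at 636, 776, 893 and 589 in chow mutants, at 373, 235, 219 and 668 in HFD controls and at 289, 788, 652 and 447 in HFD mutants. The groups overlapped in every comparison. On HFD all 4 libraries of series A were at 219 to 373 and all 4 of series B were at 447 to 788, irrespective of genotype.

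Accordingly, the genotype difference of Serpina3k on HFD moved with that split. It was 0.59 (SE 0.40, adjusted p = 0.645) over all libraries and −0.01 (SE 0.37) with the series as a term. With library weights, which were lowest for HFD control 4 and low for HFD mutant 1, it was 1.16 with an adjusted p of 0.0143, in a fit that placed 30.9% of all genes past the threshold. It was 0.39 without HFD control 3, 0.38 without HFD mutant 2 and 0.92 without HFD control 4. On chow the difference was 0.50 (SE 0.40, 95% interval −0.35 to 1.35), and it was 0.20 without chow control 3 and 0.78 without chow control 4.

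Serpina3m, its close neighbour, was at 143, 186, 134 and 142 in chow controls and at 177, 239, 182 and 193 in chow mutants. On HFD it was at 134, 132, 117 and 118 in controls and at 108, 171, 153 and 168 in mutants. Every HFD mutant was below every chow mutant, and every HFD control was below every chow control, where the nearest values were 133.5 and 134.4. The difference between genotypes on chow was 0.38 (SE 0.15, adjusted p = 0.804) and that between diets in mutants −0.41 (SE 0.15, adjusted p = 0.635). With library weights the genotype difference on HFD was 0.33 with an adjusted p of 0.0309, against 0.24 and 0.629 without them and 0.12 with the series as a term. The weighted fit placed 3 of the 9 members past the threshold in this comparison, beside 30.9% of all genes. Without HFD mutant 1 the Serpina3m difference was 0.39 for genotype on HFD and −0.26 for diet in mutants.

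Serpina3n, an acute-phase inhibitor of granzyme B and cathepsin G that liver cells induce under inflammation, had a different profile. It was at 174, 145, 221 and 175 in chow controls, at 216, 566, 147 and 202 in chow mutants, at 318, 217, 243 and 279 in HFD controls and at 254, 211, 244 and 242 in HFD mutants. Chow mutant 2 stood alone, and apart from it all libraries lay between 145 and 318. The estimate was 0.47 (SE 0.29, adjusted p = 0.885) for mutants against controls on chow and 0.56 (SE 0.29, adjusted p = 0.433) for HFD against chow in controls.

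Chow mutant 2 decided the Serpina3n values of its group. Without it, the genotype difference on chow was 0.07 (SE 0.17) in place of 0.47 (0.715 without chow mutant 3), and the diet difference in mutants was 0.35 (SE 0.17, adjusted p = 0.93) in place of −0.05. That library also had the highest summed level of 20 acute-phase genes, a list of plasma proteins such as Saa1, Hp and Orm1 that does not contain Serpina3n. The sum was 146340 there, 43303 in chow mutant 1, 47910 in HFD control 1 and 20340 to 29732 in the other 13 libraries. HFD control 1 also had the second highest Serpina3n level, 318, while chow mutant 1 was at 216. HFD control 4 had the third highest level, 279, with an acute-phase sum of 25477.

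The summed level of 5 neutrophil markers was 6265 in chow mutant 2 and 2881 in chow mutant 1, against 24.0 and 110 in the other chow mutants. It was 1.97 to 9.10 in chow controls, 5.33 to 21.4 in HFD controls and 12.1 to 145 in HFD mutants. All 5 markers were listed at 1 or more in some library. The part of these cells in the Serpina3n value was not tested.

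**Figure D3:**
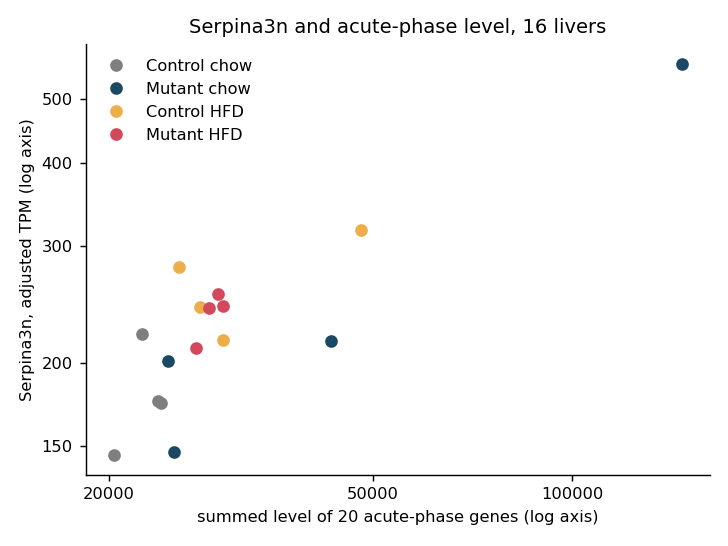
Serpina3n level (y axis, size-factor-adjusted TPM) against the summed level of 20 acute-phase genes (x axis) in 16 libraries, both on log axes, coloured by group. Chow mutant 2, at 566 and 146340, lies apart from the other libraries at the upper right.

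Over the 16 libraries Serpina3k made up 37.8 to 73.9% of the summed level of the 3 Serpina3 members and Serpina3n 12.0 to 42.0%. Serpina3k was 1.78 to 2.79 times as high as Serpina3m in HFD series A and 2.67 to 5.66 times in HFD series B, so that the ranges overlapped by a single library, HFD mutant 4.

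Serpina6, the carrier of corticosterone, was the third most abundant member, with a mean of 922 over 16 libraries, and shared no 31-base subsequence with another gene. It was at 395, 574, 806 and 764 in chow controls, at 758, 1086, 861 and 859.8 in chow mutants, at 501, 1146, 1246 and 647 in HFD controls and at 815, 1052, 1706 and 1540.3 in HFD mutants. Means were higher in mutants than in controls on both diets and higher on HFD than on chow in both genotypes, and the groups overlapped in all 4 comparisons. The estimates were 0.53 (SE 0.31, adjusted p = 0.863) for genotype on chow and 0.57 (SE 0.31, adjusted p = 0.59) on HFD. The diet estimates were 0.43 (SE 0.31) in controls and 0.47 (SE 0.31) in mutants. Single libraries moved them: genotype on chow was 0.32 and diet in controls 0.22 without chow control 1, and genotype on HFD was 0.33 without HFD control 1. Diet in controls was also 0.67 without HFD control 1, 0.27 without HFD control 2 and 0.23 without HFD control 3, and diet in mutants was 0.31 without HFD mutant 3. Serpina6 was the only tested member with a positive estimate in all 4 comparisons.

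Serpina12, known from adipose tissue, was low, at 0.107 to 1.46 in 16 libraries. Only HFD mutant 2 (1.46) exceeded 1, and the other HFD libraries were at 0.260 to 0.713. In chow libraries it was at 0.107 to 0.697. Tested without the filter on low values, the diet difference was 0.26 (SE 0.17) in controls and 0.37 (SE 0.17, adjusted p = 0.705) in mutants, and the genotype differences were −0.01 on chow and 0.10 on HFD.

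**Figure D4:**
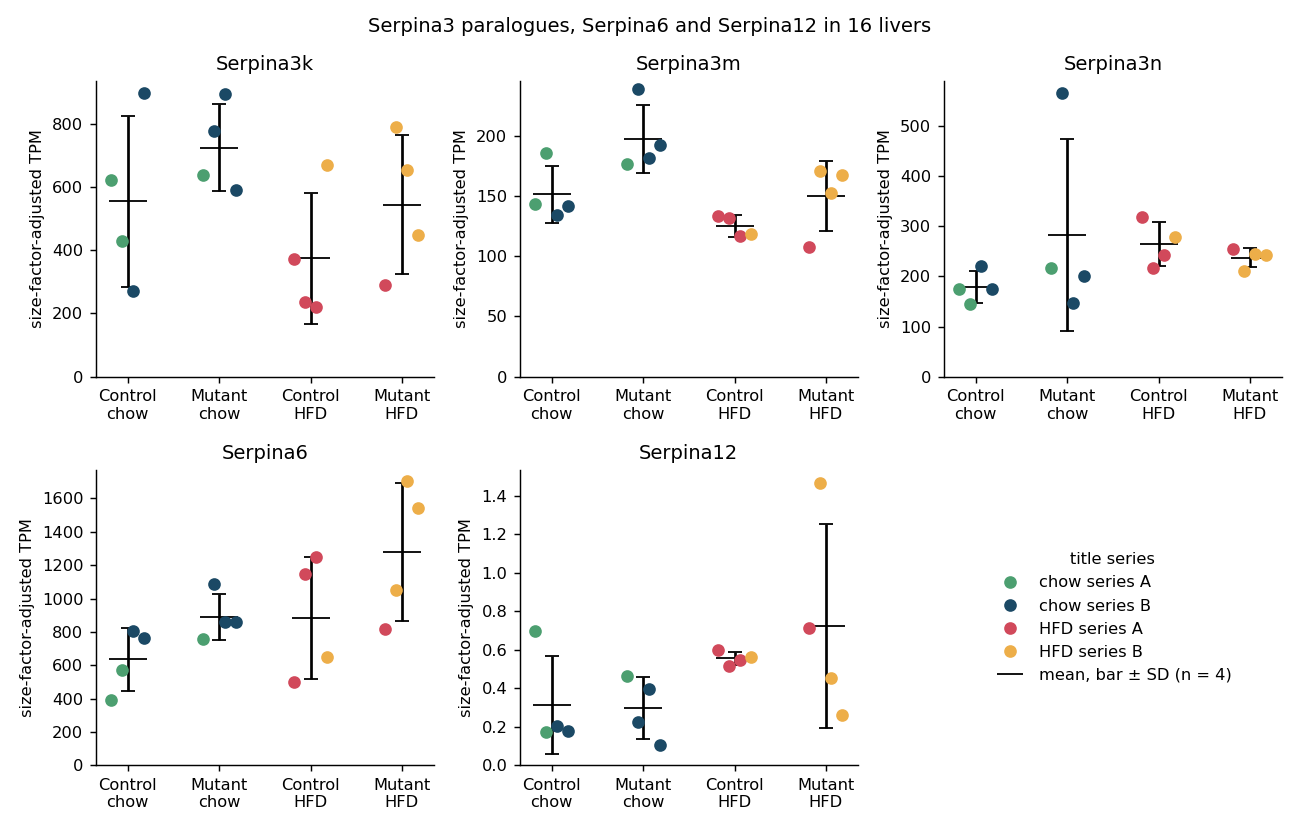
Levels of Serpina3k, Serpina3m, Serpina3n, Serpina6 and Serpina12 (y axis, size-factor-adjusted TPM, linear from 0) in the 4 groups (x axis), with points, colours, means and SD bars as for the Serpina1 paralogues. Serpina3k is at 219 to 373 in HFD series A, and Serpina3n is at 566 in chow mutant 2.

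Set against all genes, the members were described by their counts in each comparison. On chow, mutants against controls, none of the 9 tested members passed the adjusted threshold (0.0236% of all genes did), and all 9 estimates were positive with a median of 0.38 (0.02 over all genes). Serpina1e and Serpina3m were higher at an unadjusted p under 0.05 (background 4.23%). Serpina1a and Serpina1e did not overlap between the groups in the higher direction (background 1.95%).

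On HFD, mutants against controls, none of the 9 passed the adjusted threshold (background 0.0157%), 6 estimates were positive and 3 were negative, and the median was 0.24 (0.02 over all genes). Serpina1a alone was higher at an unadjusted p under 0.05 (background 4.77%) and alone did not overlap (background 1.39%). Serpina1c, Serpina1d and Serpina3n had the negative estimates.

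In controls, HFD against chow, no gene passed the adjusted threshold with limma (0% of 12704, with 1641 genes at an unadjusted p under 0.05). Of the 9 members, 7 had negative estimates, with a median of −0.27 (−0.01 over all genes), and Serpina3n and Serpina6 had positive ones. Serpina1a alone was lower at an unadjusted p under 0.05 (background 6.52%), and Serpina1a, Serpina1b, Serpina1e and Serpina3m did not overlap in the lower direction (background 2.98%). Where each library was rescaled to the same total, the median of all genes shifted by −0.15 in this comparison, and 5 members (Serpina1a, Serpina1b, Serpina1c, Serpina1e and Serpina3m) were lower at an unadjusted p under 0.05, beside 15.2% of all genes. Without the 20 most abundant genes 4 were, the same without Serpina1c, beside 11.1%. The split of all genes at that p was 6.4% higher and 6.52% lower as deposited and 1.82% higher and 15.2% lower after rescaling.

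In mutants, HFD against chow, no gene passed the adjusted threshold with limma either (0% of 12704, with 872 genes at an unadjusted p under 0.05). Of the 9 estimates, 8 were negative with a median of −0.36 (−0.01 over all genes), and that of Serpina6 was positive. Serpina1a, Serpina1d, Serpina1e and Serpina3m were lower at an unadjusted p under 0.05 (background 4.16%), and Serpina3m did not overlap (background 1.86%). For the genotype by diet interaction, 0% of genes passed the adjusted threshold with limma, 4.21% (535 genes) were at an unadjusted p under 0.05, and none of the 9 members was among these.

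In the other comparisons the scaling also moved the counts. With libraries rescaled to the same total, Serpina1e alone was higher for genotype on chow (background 2.44%, with 310 genes higher and 460 lower against 537 and 235 as deposited). For genotype on HFD, Serpina1a and Serpina6 were higher (6.63%, with 844 genes higher and 242 lower against 606 and 486), and for diet in mutants 5 members were lower (4.11%). Without the 20 most abundant genes, the counts were 1 (2.71%), 3 (8.15%) and 2 (2.78%).

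**Figure D5:**
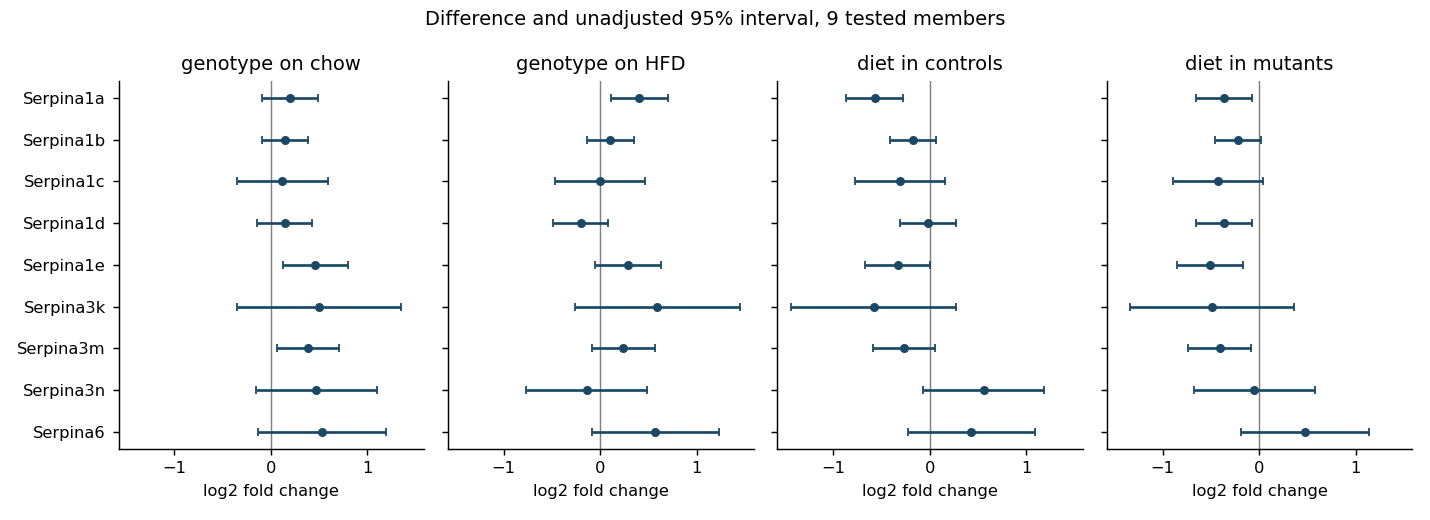
Log2 fold change (x axis, on the log2(value + 1) scale) of the 9 tested members (y axis) in the 4 comparisons, with unadjusted 95% intervals from the limma fit of 4 libraries a group. Only the intervals of Serpina1e and Serpina3m (genotype on chow), Serpina1a (genotype on HFD and diet in controls) and Serpina1a, Serpina1d, Serpina1e and Serpina3m (diet in mutants) leave out 0.

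Genes that act with the members were followed in lists. None of these genes passed the adjusted threshold in any of the 4 comparisons, so their values are given as estimates. Of 10 proteases that clade A serpins inhibit, 6 were tested, of which 2 were higher in chow mutants than in chow controls, 1 was higher in HFD mutants than in HFD controls and 2 were lower in HFD mutants than in chow mutants at an unadjusted p under 0.05. Elane and Prtn3, the neutrophil serine proteases held in check by antitrypsin and its relatives, had the largest differences. Elane was at 76.1, 131, 0.412 and 2.80 in chow mutants 1 to 4 and at 0 to 0.484 in chow controls (log2 fold change 3.70, SE 1.05, adjusted p = 0.59). Prtn3 was at 113, 380.2, 0.195 and 2.23 in the same mutants and at 0 to 0.274 in chow controls (4.17, SE 1.33, adjusted p = 0.677). Both were thus high in the 2 libraries with the high neutrophil marker sums. F11, the clotting protease factor XI, was at 56.6 ± 28.3 (SD, n = 4) in HFD controls and 90.3 ± 25.8 in HFD mutants (0.72, SE 0.28, adjusted p = 0.558), and these means held the series split: it was at 41.2 to 51.7 in all of HFD series A, the mutant included, and at 99.0 to 105 in all of HFD series B, the control included. The share of all genes at that p was 4.23% higher for genotype on chow, 4.77% higher for genotype on HFD and 4.16% lower for diet in mutants.

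Among 11 genes that fold, export or degrade antitrypsin in the secretory pathway, 1 was lower at an unadjusted p under 0.05 in each diet comparison (background 6.52% in controls and 4.16% in mutants) and none in either genotype comparison. Sel1l, part of the ubiquitin ligase complex that clears misfolded antitrypsin, was at 41.3 ± 3.26 in chow mutants and 33.0 ± 6.03 in HFD mutants (−0.33, SE 0.14, adjusted p = 0.722), where HFD mutant 1 was at 24.3 and the others at 34.1 to 38.0. These values held the series split on HFD, with 24.3 to 32.0 in series A and 34.1 to 38.7 in series B (control 38.7). Lman1, the cargo receptor that carries antitrypsin out of the endoplasmic reticulum, was at 109 ± 10.5 in chow controls and 90.4 ± 11.2 in HFD controls (−0.27, SE 0.13, adjusted p = 0.385), and HFD control 4, at 107, lay among the chow controls. Lman1 also split by series on HFD, with 77.2 to 89.0 in series A (mutant 77.2) and 100 to 112 in series B (control 107). Syvn1, the ligase partner of Sel1l, was at 35.8 ± 10.3 in HFD controls and 25.0 ± 5.73 in HFD mutants (−0.48, SE 0.23, adjusted p = 0.577). It too split by series on HFD, with 30.4 to 46.7 in series A (mutant 32.5) and 19.8 to 26.3 in series B (control 24.3).

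Of the 20 acute-phase genes, 10 were higher in chow mutants than in chow controls at an unadjusted p under 0.05 (background 4.23%), with a list median of 1.10 (0.02 over all genes), and 9 were lower in HFD mutants than in chow mutants (background 4.16%), with a median of −0.83. Both comparisons share the chow mutants, whose libraries 1 and 2 had the high sums given above. Without chow mutant 2, the median of this list was 0.43 for genotype on chow and −0.33 for diet in mutants. Without chow mutants 1 and 2, a choice made after the values had been seen, the medians were 0.11 and 0.04. In that fit 0 of the acute-phase genes were past the adjusted threshold in limma in either comparison. The 9 tested serpins had a median of 0.38 for genotype on chow, which was 0.24 without chow mutant 2 and 0.32 without both, and a median of −0.36 for diet in mutants, which was −0.40 and −0.43. Ceruloplasmin (Cp) was at 522 ± 47.8 in chow controls and 1447 ± 1198 in chow mutants (1.17, SE 0.39, adjusted p = 0.709), with 1154 and 3216 in chow mutants 1 and 2 and 690 and 727 in the others. Complement C3 was at 4432 ± 1786 in chow mutants and 2688 ± 197 in HFD mutants (−0.65, SE 0.21, adjusted p = 0.623), with 7076 in chow mutant 2. The iron hormone hepcidin (Hamp) was at 6586 ± 1204 in chow controls and 10824 ± 1228 in HFD controls (0.73, SE 0.21, adjusted p = 0.215).

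The list of IL-6 signalling genes and liver transcription factors, which drive acute-phase serpins, had 14 tested genes, of which 2 were higher in chow mutants (background 4.23%) and 3 lower in HFD mutants against chow mutants (4.16%) at an unadjusted p under 0.05. For genotype on HFD 1 was higher (4.77%) and 1 lower (3.83%), and for diet in controls 1 was higher (6.4%) and 1 lower (6.52%). Socs3, the feedback inhibitor of IL-6 signalling, was at 13.5 ± 10.9 in chow mutants and 3.85 ± 1.78 in HFD mutants (−1.36, SE 0.48, adjusted p = 0.623). Chow mutants 2 and 1, with the high acute-phase and neutrophil sums, were at 29.1 and 12.7, and chow mutants 3 and 4 were at 7.46 and 4.72. Cebpd was at 2.004 ± 0.456 in chow controls and 4.72 ± 2.75 in chow mutants (0.80, SE 0.30, adjusted p = 0.804), with 5.01 and 8.21 in chow mutants 1 and 2 and 1.56 and 4.09 in the others. Stat5b, the growth hormone transducer, was at 25.7 ± 1.23 in chow mutants and 20.9 ± 2.43 in HFD mutants (−0.29, SE 0.11, adjusted p = 0.63).

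Beside Serpina6, 10 other plasma carriers of hormones and vitamins were tested, of which 1 was higher and 1 lower on HFD than on chow in each genotype and 1 was lower in chow mutants than in chow controls at an unadjusted p under 0.05. The shares over all genes were 6.4% higher and 6.52% lower for diet in controls, 2.71% and 4.16% for diet in mutants and 1.85% lower for genotype on chow. Igfbp1 was at 77.6 ± 39.1 in chow mutants and 20.2 ± 6.03 in HFD mutants (−1.81, SE 0.59, adjusted p = 0.623), without overlap. Rbp4, the carrier of retinol, was at 3906 ± 474 in chow controls and 5410 ± 779 in HFD controls (0.47, SE 0.18, adjusted p = 0.314), also without overlap. Igfbp2 was at 639.9 ± 209 in chow controls and 428 ± 159 in chow mutants (−0.59, SE 0.26, adjusted p = 0.804).

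Of 10 genes of glucocorticoid action, the pathway fed by the hormone that Serpina6 carries, 1 was higher on HFD in controls (background 6.4%) and 1 in HFD mutants against HFD controls (background 4.77%) at an unadjusted p under 0.05. Per1 was at 9.28 ± 3.68 in chow controls and 16.8 ± 5.17 in HFD controls (0.81, SE 0.32, adjusted p = 0.314), and HFD control 4, at 9.42, lay among the chow controls. Fkbp5 was at 17.8 ± 2.79 in HFD controls and 32.3 ± 14.4 in HFD mutants (0.72, SE 0.32, adjusted p = 0.573). It was at 14.9 to 19.5 in HFD series A, where the mutant was at 15.2, and at 20.8 to 46.3 in HFD series B, where the control was the lowest. Akr1d1, which reduces steroids, was at 205 ± 28.4 in chow controls and 154 ± 53.6 in HFD controls (−0.46, SE 0.25, adjusted p = 0.455), with 113 to 151 in the controls of series A and 230.7 in that of series B. The HFD mutants held the same split, at 124 in series A and 209.7 to 240 in series B.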

How the data were processed

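Liver RNA of 16 female mice was sequenced as 16 libraries. The authors aligned reads to the mouse transcriptome with kallisto in gene mode and normalised them with sleuth (genome build mm10, per the labels), with no versions or annotation given in the sources used here. The deposited signal values, 1 per gene and library, sum to 905897 to 1119703 per library and were read as TPM adjusted by size factors, which hold no read depth, so no counting interval was possible. Reads of near-identical paralogues are divided by an estimate.

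Groups were taken from the genotype and treatment labels. All 16 libraries were fitted together as 4 group means on log2(value + 1) with limma 3.58.1 (R 4.3.3, moderated test with trend, two-sided), for genes that reached a level of 1 in 4 libraries or more, and p-values were adjusted by Benjamini-Hochberg over all 12704 of them. These contrasts were genotype on each diet, diet in each genotype and their interaction. The authors' likelihood-ratio test needs the quantification output, which was not used here. The fit was tested on simulated data. Paralogue sums and shares were computed per library. Sequences came from GENCODE transcripts on GRCm38 and RefSeq promoter windows on GRCm38.p6 (Python 3.11.15, Biopython 1.88), and a subsequence was called unique if its 31 bases occurred in no other gene's transcripts. All members are named, and of each related list at most 3 genes with the smallest unadjusted p over the 4 comparisons of 2 groups. The members and lists were chosen with earlier results of these data known. The alternatives covered scaling, filter, pseudocount, library weights, the samples in the fit, the title series, leaving out each library and, added after the data were seen, leaving out chow mutants 1 and 2 together.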

Additional observations from a re-analysis of the deposited data

Results flagged for a closer look

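Among the 40 sets of 4 libraries formed by 10 members and 4 groups, 4 held a library that stood apart from the other 3 by Dixon's criterion. Chance flags about 1 in 20 such sets. Serpina3n was at 566 in chow mutant 2, with 147 to 216 in the other chow mutants. Serpina1b was at 1786 in chow control 4, with 1585 to 1615 in the others. Serpina3m was at 186 in chow control 2, with 134 to 143 in the others. Serpina12 was at 0.697 in chow control 1, with 0.176 to 0.204 in the others. Of these libraries, chow mutant 2 also had the highest acute-phase sum (146340) and the highest neutrophil marker sum (6265), and their part in the Serpina3n value was not tested.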

How the results depend on the processing

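Over 805 values of members under alternatives, 759 kept their direction and side of the adjusted threshold, 41 changed sign and 5 newly passed it. With library weights, Serpina1a (0.47), Serpina3k (1.16) and Serpina3m (0.33) passed for genotype on HFD and Serpina1a (−0.56) for diet in controls, and without HFD control 4 Serpina1a (−0.61) passed for diet in controls. The count of all genes past the threshold was 3 for genotype on chow and became 5 without the 20 most abundant genes, 1 with a filter at 5, 6 with library weights, 6 with only the groups compared, 1 with the title series as a term and 1 to 14 with a library left out (14 without chow mutant 3, 5 without chow mutant 4, 1 without chow control 1, 2 or 4 or chow mutant 1). For genotype on HFD it was 2 and became 3926 with library weights, 1 with only the groups compared, 2 to 141 with a library left out (141 without HFD mutant 1, 5 without HFD control 4, 4 without HFD control 3). For diet in controls it was 0 and became 2 with each library rescaled to the same total, 2264 with library weights, 4 with only the groups compared and 0 to 928 with a library left out (928 without HFD control 4, 2 without chow control 1). For diet in mutants it was 0 and became 9 with library weights, 1 with only the groups compared and 0 to 2 with a library left out (2 without HFD mutant 1). The interaction stayed at 0 throughout. The cause of these changes was not tested.

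Signs changed as follows. Rescaling to the same total gave 0.083 for Serpina1c (genotype on HFD) and, for the interaction, 0.12 for Serpina1b, 0.046 for Serpina1c and 0.019 for Serpina3m. Leaving out the 20 most abundant genes gave 0.10 for Serpina1c (genotype on HFD), 0.016 for Serpina3n (diet in mutants) and, for the interaction, 0.15 for Serpina1b, 0.073 for Serpina1c and 0.046 for Serpina3m. Library weights gave 0.006 for Serpina1d (diet in controls) and 0.22 for Serpina3n (diet in mutants). The title series as a term gave 0.33 for Serpina1c and −0.006 for Serpina3k (genotype on HFD) and 0.16 and −0.49 for the interaction. With a library left out, Serpina1c ranged from −0.074 to 0.205 (genotype on chow) and from −0.18 to 0.11 (genotype on HFD), Serpina1d from −0.107 to 0.062 (diet in controls) and Serpina3n from −0.30 to 0.35 (diet in mutants). For the interaction the ranges were −0.096 to 0.038 for Serpina1b, −0.298 to 0.074 for Serpina1c, −0.19 to 0.42 for Serpina3k, −0.247 to 0.005 for Serpina3m and −0.20 to 0.25 for Serpina6. The Serpina1 sum on the log2 scale differed by −0.41 for diet in controls and by −0.58 with libraries rescaled to the same total, a setting that shifted the median gene by −0.15 (−0.11 without the 20 most abundant genes). Over the 2 alternatives computed for this sum, the genotype difference was 0.091 to 0.136 on chow and 0.224 to 0.34 on HFD. The diet difference in mutants was −0.335 to −0.302. No paired analysis was possible because the labels give no replicate numbers.

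The depth behind the values is unknown, so low levels such as those of Serpina1e and Serpina12 have no counting error attached. Values of single Serpina1 paralogues rest on how reads were divided. Comparisons had 4 libraries a side, and each title series lies within 1 diet.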

Other observations

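Other serpins were followed in the same livers. Of 16 further clade A genes, 7 were tested, with list medians of 0.33 and −0.08 for mutants against controls (chow, then HFD) and −0.28 and −0.34 for HFD against chow (controls, then mutants) beside 0.02, 0.02, −0.01 and −0.01 over all genes, and none passed the adjusted limma threshold. Serpina11 was at 175 ± 45.1 (SD, n = 4) in chow controls and 295 ± 74.5 in HFD controls without overlap (log2 fold change 0.75, SE 0.22, adjusted p = 0.215). Serpina10, an inhibitor of clotting factor Xa, was at 107 ± 5.06 in chow controls and 202 ± 135 in chow mutants without overlap (0.71, SE 0.28, adjusted p = 0.804), with 164 and 402 in chow mutants 1 and 2, the libraries with high acute-phase and neutrophil marker sums, and 117 and 124 in the others. Serpina3g was at 20.3 ± 13.3 in chow mutants and 8.25 ± 0.814 in HFD mutants (−0.94, SE 0.47, adjusted p = 0.747), where the chow mutants were spread from 5.76 to 34.1. Of 14 serpins of other clades, 13 were tested and their medians lay between −0.12 and 0.05 in the 4 comparisons. Serpinf2, the inhibitor of plasmin, was at 930 ± 126 in chow mutants and 754 ± 33.1 in HFD mutants (−0.29, SE 0.12, adjusted p = 0.687). Serpinb9, an intracellular inhibitor of granzyme B, was at 6.09 ± 1.48 in chow controls and 3.97 ± 1.13 in HFD controls (−0.52, SE 0.19, adjusted p = 0.295), and HFD control 4, at 5.50, lay among the chow controls. Serpinb9 split by series on HFD, with 3.06 to 4.13 in series A (mutant 3.86) and 4.74 to 5.81 in series B (control 5.50). Serpine2 was at 2.95 ± 0.558 in HFD controls and 2.09 ± 0.470 in HFD mutants (−0.36, SE 0.16, adjusted p = 0.575).

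Genes whose log2 levels over the 16 libraries were most like those of 3 members are given as a description, since all points come from the same libraries. Only genes other than serpins with a mean level of 5 or more were searched. Genes as low as Serpina12 were thus left out. For Serpina3n they were Rnase4 (Pearson r = 0.94, Spearman rho = 0.90), Vtn (0.93 and 0.85) and Ly6d (0.92 and 0.84), and r was 0.83, 0.80 and 0.82 without chow mutant 2 and chow control 2, the libraries farthest from the median. For Serpina6 they were Mbl2 (0.86 and 0.87), Ndel1 (0.82 and 0.73) and Spp2 (0.80 and 0.79), with r of 0.77, 0.72 and 0.70 without chow control 1 and HFD mutant 3. For Serpina12 they were Csnk1d (0.75 and 0.62), Stk16 (0.74 and 0.75) and Fbxl21 (0.73 and 0.69), with r of 0.40, 0.73 and 0.63 without HFD mutant 2 and chow mutant 4. Among members, Serpina1a and Serpina1b had r = 0.84, Serpina1a and Serpina1e 0.82, Serpina1a and Serpina1c 0.37, and Serpina3k and Serpina3m 0.58.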
